A study of Mus musculus with 20 samples.

Results

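The potassium and HCN channel genes of the mouse cochlea were examined at 2 ages on either side of hearing onset, in mice that carried 1 or 2 disrupted copies of Bai1 (Adgrb1). The family was taken as every gene in the count files whose symbol starts with Kcn or Hcn, which gave 102 of 24411 genes, grouped by symbol into 17 subfamilies. RNA came from the sensory epithelium and spiral ganglion of the apical coil, from heterozygous Bai1tm2b/+ mice (Het, the controls) and Bai1tm2b/tm2b littermates (Homo) on a C57BL/6N background, both sexes together. The tm2b allele lacks exons 3 and 4 of Bai1, carries a lacZ cassette in their place and leaves a short Bai1 transcript intact. All of these mice, controls included, therefore carried at least 1 tm2b copy and the Cdh23 ahl variant of the C57BL/6N strain, and no wild-type mice entered these comparisons. Each library pooled 4 mice per the labels. At P7, before hearing, there were 7 libraries per genotype in 2 sequencing batches, and the labels do not say which replicate belonged to which batch. Replicates 5, 6 and 7 were deposited as estimated counts and replicates 1 to 4 as TPM (transcript abundance scaled for length and depth) rounded to whole numbers. At P22, after hearing onset, there were 3 libraries per genotype, all deposited as estimated counts.

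Potassium channels set the resting potential and end the action potential, and their mixture fixes how fast and how regularly a neuron can fire. In spiral ganglion neurons, low-threshold Kv1 channels (Kcna) keep firing brief and well timed, high-threshold Kv3 channels (Kcnc) repolarise the membrane fast, and HCN channels carry a cation current that opens on hyperpolarisation. Outside the neurons, the BK channel Kcnma1 serves hair cells, Kcnn2 forms the SK channel at their efferent contacts, Kcnj10 and Kcnj16 are inward rectifiers of glia and supporting cells, and Kcnq1 with its partner Kcne1 secretes potassium into the endolymph from the stria vascularis.

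Library totals ran from 31108551 to 58807173 counts at P7 and from 35725985 to 40350413 at P22, and levels are given as CPM, counts scaled to library size, on one TMM scale over the 12 count libraries. Adgrb1 itself was at 154, 152 and 167 CPM in the P22 Het libraries and at 103, 100.2 and 105 CPM in the Homo libraries (log2 fold change -0.61, SE 0.0585, adjusted p = 0.000602, edgeR). At P7 the counts gave 32.1, 56.4 and 36.02 CPM in Het against 25.9, 21.6 and 31.2 CPM in Homo (log2 fold change -0.64, SE 0.227, adjusted p = 0.894, edgeR), without overlap. In the rounded TPM libraries the values overlapped, at 10, 12, 8 and 7 TPM in Het and 9, 9, 10 and 12 TPM in Homo, so the gene did not check those labels. Because a gene total also takes in the intact short transcript and the remaining exons, it is not a measure of the deletion itself. All 13 neuron markers were detected in every group. Their summed level was between 13375 and 14937 CPM in the P22 Het libraries and between 1574.6 and 3101.2 CPM in the P7 Het count libraries. These markers do not tell spiral ganglion neurons from other neurons. P22 Het replicate 2 stood apart from the other P22 libraries in stria vascularis and pigment cell genes. It was the highest of the 6 P22 libraries for 6 of 8 such markers, with the pigment cell gene Dct at 266.9 CPM in that library and 1.197 and 1.99 CPM in the other Het libraries. Counts that rest on this library are given below with and without it.

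Most of the family was measurable. Of the 102 members, 90 passed the low-count filter over both ages (16314 genes in all), 82 passed at P22, 88 in the P7 counts and 36 in the P7 rounded TPM, where a mean of at least 5 TPM was required. The 12 members that were not tested over both ages were Kcnd3os, Kcnh4, Kcnj1, Kcnj5, Kcnk15, Kcnk16, Kcnk18, Kcnk7, Kcnmb3, Kcnmb4os1, Kcnv1 and Kcnv2, and of these Kcnj1 and Kcnk16 had no count in any of the 12 count libraries. A further 7 members, among them Kcna3 and Kcns2, passed over both ages and in the P7 counts but not at P22. Since these entered the age comparison through their P7 level, a fall was built into their selection, as was a rise for Kcnmb1, which passed at P22 but not at P7. Kcnj6 passed over both ages alone.

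The family as a whole took far more of the RNA at P22 than at P7. Summed over members, its level was 1422.69, 1937.5 and 1618.48 CPM in the P7 Het libraries and 8905.69, 8649.98 and 9759.21 CPM in the P22 Het libraries. A few channels carried most of it. The 8 most abundant members held 78.4% of the summed level in P22 Het and 56.0% in P7 Het. Per kilobase of exon, so that genes can be set side by side, the highest members in P22 Het included the Kv1 subunit Kcna1 at 254.92 CPM per kb, the Kv1 auxiliary subunit Kcnab2 at 230.86, the K2P leak channel Kcnk1 at 200.24 and Hcn2 at 177.64. The Kv3 subunit Kcnc1, Kcna2 and the ERG channel Kcnh2 followed at 93.234, 83.104 and 68.95 CPM per kb. In P7 Het the order of these per-length levels was led by Kcna1 at 45.9 CPM per kb, then by the glial inward rectifier Kcnj10 at 43.584 and by Kcnk1 at 36.556, with Kcnj16 at 17.809 and Kcnh2 at 15.276 after them. Hcn2 and Kcnc1, in the leading group at P22, were thus not among the first 5 at P7.

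**Figure D1:**
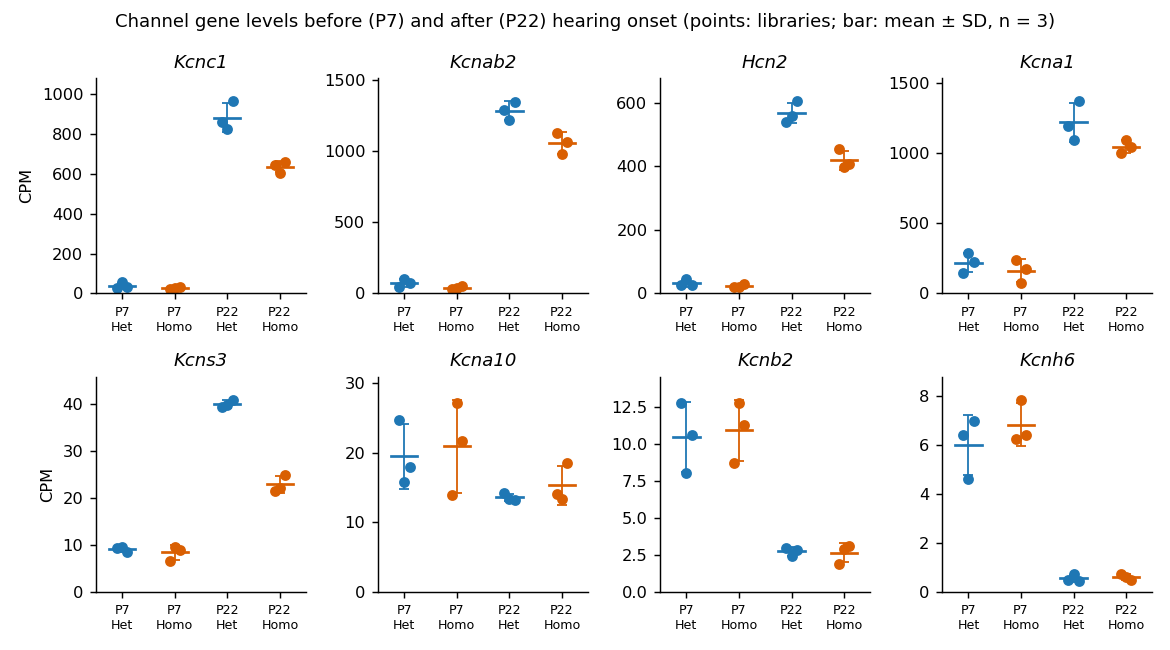
Levels of 8 named members by age and genotype in the 12 count libraries. Points are libraries in CPM (linear axes from 0, TMM scale), bars the mean ± SD of 3; Kcnc1, Kcnab2, Hcn2, Kcna1 and Kcns3 sit higher at P22 in both genotypes, while Kcnb2 and Kcnh6 sit lower.

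Between P7 and P22 in Het mice, 33 members rose and 18 fell of the 90 tested, where a rise or fall means an adjusted p under 0.05, a log2 fold change beyond 1 and a standard error under 0.5 (edgeR). Over all genes tested 13.4% rose and 15.2% fell by the same rule. The median log2 change of the members was 0.42, against -0.06 over all genes, and it turned to -1.64 when libraries were scaled to their neuron markers. Of the 18 falls, 3 were of members not tested at P22 (Kcna3, Kcnj4 and Kcns2) and 15 were of members also tested at P22. Without P22 Het replicate 2 the counts were 31 and 14. Age and sequencing run coincide in these libraries and cannot be told apart, and in bulk tissue fewer cells of a type cannot be told apart from less RNA per cell. Moreover, 12 of the 13 neuron markers rose over the same interval, with a median log2 change of 2.42. Their part in the channel results was not tested.

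The largest rises were in Kv3 channels, HCN channels and the auxiliary subunits of Kv1. Kcnc1, which forms fast-deactivating Kv3 channels, was at 25.8, 56.4 and 32.4 CPM in the 3 P7 Het libraries and at 859, 824 and 963 CPM in the 3 P22 Het libraries (log2 fold change 4.53, SE 0.259, adjusted p = 1.39e-08, edgeR). The lowest P22 library lay more than 10-fold above the highest P7 library. Kcnc4 rose less (log2 fold change 1.55, SE 0.131, adjusted p = 3.42e-07, edgeR). Kcnc2, also a Kv3 gene, was at 9.03, 14.1 and 6.29 CPM at P7 and 9.85, 9.52 and 9.74 CPM at P22 and did not pass (log2 change -0.021, adjusted p = 0.953, edgeR).

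Hcn2, the most abundant HCN gene, stood at 25.3, 44.8 and 25.6 CPM at P7 and 540.3, 559 and 603 CPM at P22 in Het (log2 fold change 4.15, SE 0.231, adjusted p = 1.14e-08, edgeR). Hcn4, the slowly activating form, rose less, from 9.94, 15.5 and 13.2 CPM to 39.95, 39.5 and 53.1 CPM (log2 fold change 1.77, SE 0.223, adjusted p = 1.24e-05, edgeR), and turned to a log2 change of -0.31 under scaling to neuron markers. The P7 and P22 libraries did not overlap for these HCN genes. Hcn3 passed the adjusted p but not the fold limit (log2 change 0.41).

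Among Kv1 genes, Kcna1 and Kcna2, the low-threshold channels of the axon and its juxtaparanodes, and their auxiliary subunits moved together. Kcna2 was at 91.1, 157 and 122 CPM at P7 and at 969.9, 895 and 1104 CPM at P22 in Het (log2 fold change 3.00, SE 0.283, adjusted p = 8.86e-07, edgeR). Kcna1 was at 148, 287 and 224 CPM and 1195, 1092 and 1368 CPM (log2 fold change 2.47, SE 0.338, adjusted p = 2.52e-05, edgeR). Of the auxiliary subunits, Kcnab2 and Kcnab3 had larger log2 changes than these and Kcnab1 a smaller one. Kcnab2 increased from 44.2, 100.4 and 71.4 CPM to 1291, 1223 and 1349.8 CPM (log2 fold change 4.16, SE 0.269, adjusted p = 3.55e-08, edgeR). Kcnab3 increased from 9.01, 13.01 and 10.4 CPM to 168, 181 and 192 CPM (log2 fold change 4.05, SE 0.130, adjusted p = 5.04e-10, edgeR). Kcnab1 increased from 7.73, 13.5 and 8.53 CPM to 21.5, 23.5 and 23.4 CPM (log2 fold change 1.19, SE 0.242, adjusted p = 0.000667, edgeR), so all 3 Kcnab genes passed the rule for a rise in Het. Of the 8 Kcna genes 3 rose and 2 fell, with Kcna3 counted among the falls. Kcna3 (log2 change -2.64, from a low P7 level) was not tested at P22, so a fall was built into its selection. Kcna6 did not pass (0.054, adjusted p = 0.819, edgeR). The hair cell gene Kcna10 missed the adjusted threshold at a log2 change of -0.52 (adjusted p = 0.0546, edgeR).

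**Figure D2:**
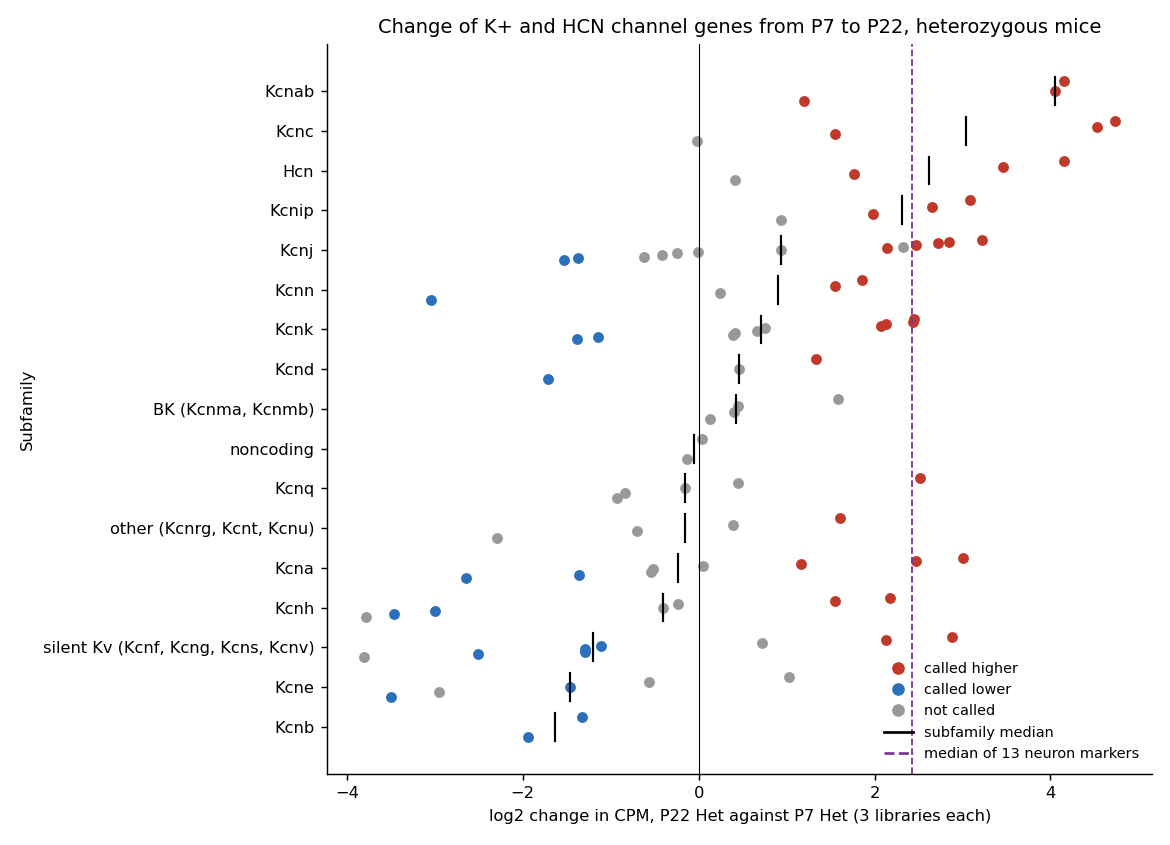
Log2 fold change from P7 to P22 in Het mice for each tested member, grouped by subfamily. Each point is 1 gene (red higher, blue lower, grey not called), black bars are subfamily medians and the dashed line is the median neuron marker at 2.42; Kcnab, Kcnc, Hcn and Kcnip medians lie above 0 on the TMM scale and Kcnb and Kcne medians below it, and only the Kcnab, Kcnc and Hcn medians lie beyond the neuron markers.

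Other neuronal members rose as well. Kcnip4, an accessory subunit of Kv4 channels, changed by 3.08 and Kcnip2 by 1.98 on the log2 scale, and 3 of the 4 Kcnip genes passed the rule. Kcnj14, an inward rectifier, rose from 0.394, 0.718 and 0.979 CPM to 6.38, 6.03 and 7.25 CPM in Het (log2 fold change 3.22, SE 0.264, adjusted p = 2.62e-07, edgeR). The silent Kv subunits Kcns1 and Kcns3, which do not form channels alone but modify Kcnb channels, rose by 2.88 and 2.13. Their partner Kcnb2 went the other way. It was at 12.8, 8.06 and 10.6 CPM at P7 and at 2.98, 2.39 and 2.82 CPM at P22 (log2 fold change -1.94, SE 0.225, adjusted p = 5.75e-06, edgeR). Kcns2 changed by -2.50 on the log2 scale, but it was not tested at P22, so a fall was built into its selection. Of the 8 silent subunits tested 2 rose and 4 fell, with Kcns2 counted among the falls. Scaling to neuron markers brought Kcns3 to a log2 change of -0.0019.

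The steepest falls were in genes of low to moderate level. Kcnh6, an ERG-type channel, was at 6.40, 4.60 and 6.97 CPM at P7 and at 0.460, 0.723 and 0.440 CPM at P22 (log2 fold change -3.46, SE 0.255, adjusted p = 1.02e-07, edgeR). The groups were wide apart. Kcne1l, an accessory subunit, fell by 3.49 on the log2 scale but was no longer called in 6 of the fits with 1 library removed. Kcnn3, an SK channel, fell by 3.05 and Kcnh8, an ELK channel, by 3.00. Kcnd3, an A-type channel, changed by -1.71, the accessory subunit Kcne4 by -1.47, the leak channel Kcnk3 by -1.39 and the inward rectifier Kcnj13 by -1.37. For Kcnj13, 49.1% of the exon bases lie within an exon on the opposite strand, and the sources used here do not state whether counting used strand. The same limit holds for other members, among them Kcna6 at 39.6%, Kcnmb4 at 31.5% and Hcn3 at 17.1%.

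Several cochlear channels did not pass the rule for a rise or fall over the same interval. Kcnma1, the BK channel pore, had a log2 change of 0.12 (adjusted p = 0.515, edgeR), and its auxiliary subunit Kcnmb4 of 0.45. Kcnj10 stood at 228, 244 and 234 CPM at P7 and at 177, 224 and 193 CPM at P22 in Het, a log2 change of -0.25. Kcnj16, which joins Kcnj10 in heteromeric channels, had a log2 change of 0.94 and missed the fold limit. Kcnn2 rose (log2 fold change 1.55, SE 0.121, adjusted p = 1.71e-07, edgeR), though its log2 change was -0.62 under scaling to neuron markers. Scaling to hair cell markers moved the median of all genes to 1.09. In that fit Kcnma1, Kcnmb4, Kcnj16 and Kcnn2 were called higher and Kcnj10 was not. The summed level of the hair cell markers was 639.78 to 953.07 CPM in P7 Het and 447.27 to 476.9 CPM in P22 Het, and that of the supporting cell markers 6617.4 to 8659.1 CPM and 1010 to 1149.2 CPM.

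Scaled to the geometric mean of the neuron markers, which moved the median of all genes to -2.19, 8 members still rose with age in Het and 40 fell. Among the 8 were Hcn2, Kcnab2, Kcnab3, Kcnc1, Kcnip4 and Kcnj14. Kcna1, Kcna2 and Kcnk1 were not among them.

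In Homo mice the age comparison gave 31 rises and 23 falls among the same 90 members, where 12.9% of all genes rose and 13.9% fell. Of these, 29 rises and 18 falls were also called in Het. Kcnc1 went from 23.6, 28.0 and 34.4 CPM to 646, 604 and 659 CPM in Homo (log2 fold change 4.47, SE 0.259, adjusted p = 1.96e-08, edgeR). Hcn2 went from 18.7, 21.0 and 29.3 CPM to 453, 396 and 408 CPM (log2 fold change 4.18, SE 0.232, adjusted p = 1.46e-08, edgeR). Kcnab2 changed by 4.79 and Kcnab3 by 4.06, beside 4.16 and 4.05 in Het, while Kcnab1 did not pass in Homo (log2 change 0.40, adjusted p = 0.145, edgeR). The falls numbered 14 without P7 Homo replicate 6 and 15 without P22 Homo replicate 3. A further 4 rises were called in Het alone and 2 rises and 5 falls in Homo alone, and no member passed the test of the difference between genotypes given at the end of the genotype results.

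Promoter windows of RefSeq on GRCm38.p6, from 250 bases before to 50 bases after the annotated start, were matched by symbol for 74 of the 102 members. Kcnc1 and Hcn2 are shown as large risers with a window, Kcnh6 as a large faller, and Kcns3 as the member with the smallest genotype p at P22. The windows are chr7:46396218-46396517 (plus strand) for Kcnc1, chr10:79716384-79716683 (plus strand) for Hcn2, chr11:106007898-106008197 (plus strand) for Kcnh6 and chr12:11150793-11151092 (minus strand) for Kcns3. Capitals mark the GC box GGGCGG on either strand and, in Kcnh6, also the letters TTCAGCACC, the left part of the RE1 element that the neuronal repressor REST is known to bind.
Kcnc1: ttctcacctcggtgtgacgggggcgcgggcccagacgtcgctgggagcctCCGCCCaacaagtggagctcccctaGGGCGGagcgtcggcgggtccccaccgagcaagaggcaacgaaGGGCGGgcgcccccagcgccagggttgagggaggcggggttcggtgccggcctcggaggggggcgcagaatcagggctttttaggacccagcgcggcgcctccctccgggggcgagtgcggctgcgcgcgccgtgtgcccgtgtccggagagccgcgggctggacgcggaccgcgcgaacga
Hcn2: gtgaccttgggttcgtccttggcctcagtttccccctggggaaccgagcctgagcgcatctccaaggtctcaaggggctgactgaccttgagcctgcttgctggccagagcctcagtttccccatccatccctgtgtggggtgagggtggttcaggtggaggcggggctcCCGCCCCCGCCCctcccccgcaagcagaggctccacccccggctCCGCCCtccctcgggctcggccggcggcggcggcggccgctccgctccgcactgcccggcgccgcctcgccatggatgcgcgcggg
Kcnh6: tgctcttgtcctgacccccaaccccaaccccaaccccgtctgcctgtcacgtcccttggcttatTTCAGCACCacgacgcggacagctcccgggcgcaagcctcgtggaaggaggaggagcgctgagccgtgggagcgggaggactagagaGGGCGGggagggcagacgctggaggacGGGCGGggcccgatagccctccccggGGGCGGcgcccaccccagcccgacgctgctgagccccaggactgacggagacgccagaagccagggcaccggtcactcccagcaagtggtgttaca
Kcns3: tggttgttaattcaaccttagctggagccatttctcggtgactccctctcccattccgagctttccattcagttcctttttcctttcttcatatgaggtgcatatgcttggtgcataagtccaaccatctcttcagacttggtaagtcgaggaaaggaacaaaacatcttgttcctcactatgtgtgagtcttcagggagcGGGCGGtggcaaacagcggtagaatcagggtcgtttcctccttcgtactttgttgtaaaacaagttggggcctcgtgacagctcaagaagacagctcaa
The Kcnc1, Hcn2 and Kcnh6 windows each held 3 GC boxes and the Kcns3 window 1. Searched on both strands, with matches to the different motifs allowed to overlap, the GC box was present in 52.7% of member windows and in 35.9% of all 27025 windows of this length. The letters TATAAA were present in 4.05% of member windows and 14.2% of all windows, and the E-box CACGTG in 6.76% and 7.24%. TTCAGCACC occurred in Kcnh6 alone among the members, 1.35% of their windows, and in 0.359% of all windows. The median GC content was 60% in member windows and 52.67% over all. The 23 windows of members that rose with age in Het had a median GC content of 62.33% with a GC box in 65.2%, and the 11 windows of those that fell had 66% and 54.5%. These are letter matches in a fixed window and not mapped sites.

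At P22, Homo libraries were lower than Het libraries for more members than they were higher. A gene was called when its adjusted p was under 0.05, its log2 fold change beyond 0.5 and its standard error under 0.5 (edgeR). On that rule 10 of 82 members were lower in Homo and 2 were higher, where 1.41% of all genes tested were lower and 1.74% higher. The median log2 difference of the members was -0.13, against 0.01 over all genes, with 52 of 82 below 0 where 47.6% of all genes were, and it became 0.07 when libraries were scaled to their neuron markers. Groups did not overlap for 29 members with lower and 8 with higher Homo values, 35.4% and 9.76% of those tested, beside 18.8% and 15% of all genes. With no fold limit 25 members were lower and 5 higher, beside 7.28% and 5.04% of all genes, and with a test against a log2 difference of 0.5 none was called in either direction. Without P22 Het replicate 2 the counts were 12 lower and 2 higher, but the members changed. In that fit Kcnk13 was called higher in place of Kcnq1ot1. Kcnk12 was no longer called, and Hcn4, Kcnc1 and Kcnq3 were also called lower. The count of lower members was 4 without Het replicate 3, and that of higher members 1 without Het replicate 1 or 3 or Homo replicate 2 and 3 without Homo replicate 3. The summed level of all members was 7482.23, 7335.28 and 7513.47 CPM in Homo, below each of the Het libraries, a mean of 7443.7 ± 95.15 against 9105 ± 580.8 (SD, n = 3 each) that is 18.25% lower (exact two-sided permutation test, p = 0.1, the smallest this design allows).

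Neuron markers lay lower in Homo as well. The summed level of 13 neuron markers was 13375 to 14937 CPM in Het and 10470 to 11689 CPM in Homo. None of the 13 passed the call rule, 6 were lower at an adjusted p under 0.05 without the fold limit, and their median log2 difference was -0.22 (edgeR). Hair cell markers went the other way, from 447.27 to 476.9 CPM in Het to between 565.86 and 673.57 CPM in Homo, with 3 of 11 called higher and a median of 0.49. Central glia markers ran from 715.83 to 858.7 CPM in Het and from 992.36 to 1620.1 CPM in Homo, with 5 of 7 called higher and a median of 0.69. The part of these shifts in the channel results was not tested. When libraries were scaled to the neuron markers, which moved the median of all genes to 0.22, the members called lower were Kcns3, Kcnk10 and Kcnq5, and 9 members were called higher. Scaled to hair cell markers, which moved that median to -0.48, 46 were called lower and none higher.

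**Figure D3:**
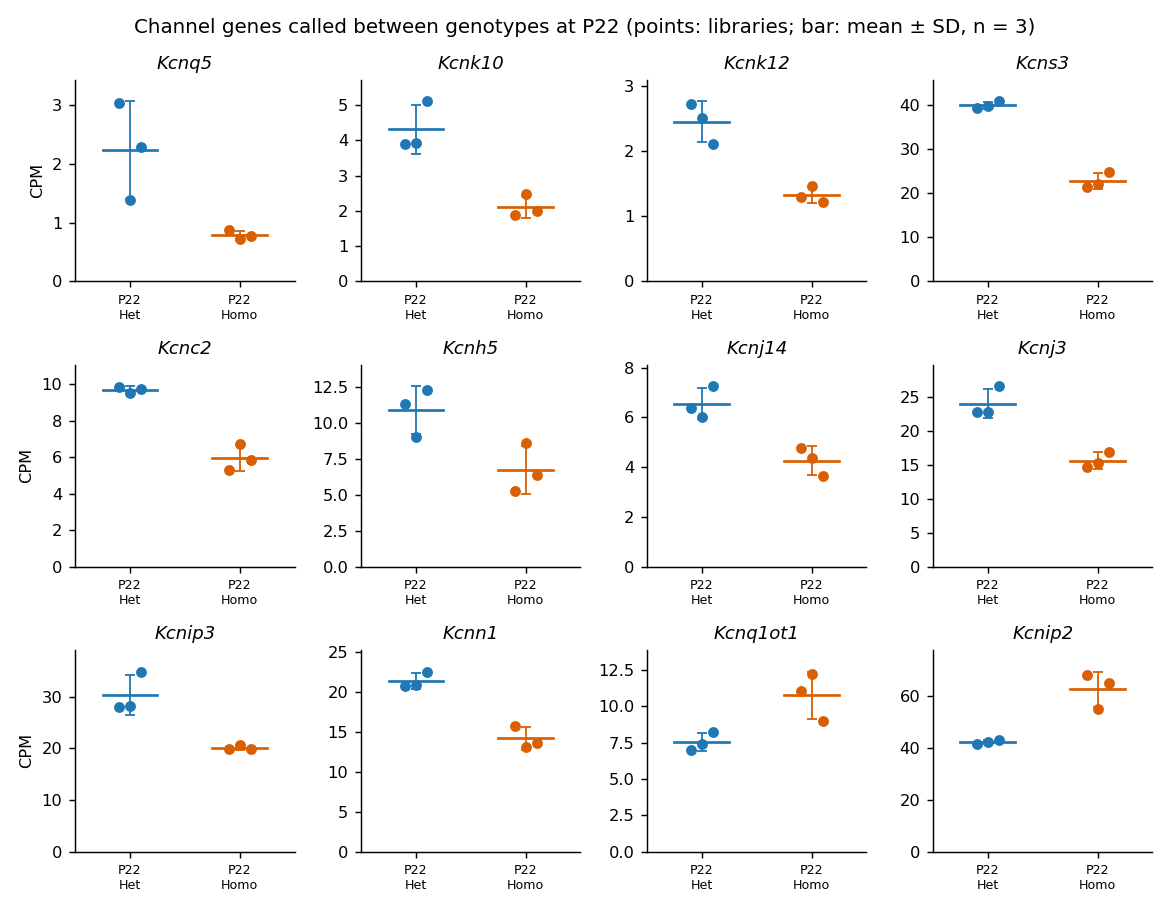
The 12 members called at P22, per library. Points are the 3 Het and 3 Homo libraries in CPM (linear axes from 0, TMM scale), bars the mean ± SD; the Het and Homo libraries do not overlap for any of the 12, with 10 lower and 2 higher in Homo.

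Among the members the silent voltage-gated subunit Kcns3 had the smallest p. It was at 39.3, 39.8 and 40.9 CPM in the Het libraries and 21.5, 22.2 and 24.9 CPM in the Homo libraries (log2 fold change -0.80, SE 0.0773, adjusted p = 0.000602, edgeR). The 2 groups were clearly separate, each within a narrow range. Kcns3 (ENSMUSG00000043673.11) lies on the minus strand of chromosome 12, 11090202 to 11151056 on GRCm38. Over the 6 P22 libraries, the members whose log2 CPM followed Kcns3 most closely included Kcnj3, Kcnc1, Kcnh2 and Kcnj11, with Pearson r of 0.981, 0.959, 0.955 and 0.954. These r values describe libraries of 2 genotypes that share the neuron marker difference given above.

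Kcnc2, which unlike Kcnc1 had not passed the rule for a rise with age, was at 9.85, 9.52 and 9.74 CPM in Het and 5.32, 6.74 and 5.83 CPM in Homo (log2 fold change -0.69, SE 0.129, adjusted p = 0.00833, edgeR). Kcnh5, an EAG channel, was at 11.3, 9.05 and 12.3 CPM and 5.23, 8.57 and 6.36 CPM (log2 fold change -0.69, SE 0.185, adjusted p = 0.0367, edgeR). Its highest Homo library came close to the lowest Het library. Kcnq5, a subunit of the M current, showed the largest difference among the called members from a very low level, 3.04, 1.38 and 2.29 CPM in Het against 0.868, 0.716 and 0.781 CPM in Homo (log2 fold change -1.49, SE 0.324, adjusted p = 0.0160, edgeR). The Het libraries of Kcnq5 themselves spread over more than the distance from the lowest of them to the Homo libraries. Kcnq3, another M current gene, was not called, with a log2 difference of -0.53.

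Inward rectifiers and leak channels gave 4 of the calls. Kcnj3, a subunit of G protein-gated channels, was at 22.7, 22.8 and 26.5 CPM in Het and 14.6, 15.3 and 16.9 CPM in Homo (log2 fold change -0.61, SE 0.0963, adjusted p = 0.00474, edgeR). For Kcnj3, 31.1% of the exon bases lie within an exon of the opposite strand. Kcnj14 was at 6.38, 6.03 and 7.25 CPM and 4.77, 4.38 and 3.63 CPM (log2 fold change -0.61, SE 0.157, adjusted p = 0.0310, edgeR). Kcnk10, a mechanosensitive leak channel, was at 3.90, 3.93 and 5.10 CPM in Het and 1.87, 2.47 and 2.01 CPM in Homo (log2 fold change -1.02, SE 0.202, adjusted p = 0.0113, edgeR). Kcnk12, a K2P subunit often silent on its own, was at 2.73, 2.51 and 2.11 CPM and 1.30, 1.46 and 1.23 CPM (log2 fold change -0.87, SE 0.231, adjusted p = 0.0348, edgeR). All 4 were clear of overlap, and Kcnk12 had the lowest level of them.

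The SK channel Kcnn1 was at 20.7, 20.8 and 22.5 CPM in Het and 15.8, 13.2 and 13.6 CPM in Homo (log2 fold change -0.58, SE 0.0955, adjusted p = 0.00531, edgeR). The accessory genes Kcnip3 and Kcnip2 differed in direction. Kcnip3, also known as a calcium-binding transcriptional repressor, was lower in Homo, at 19.9, 20.6 and 19.8 CPM against 28.0, 28.3 and 34.8 CPM (log2 fold change -0.59, SE 0.0945, adjusted p = 0.00494, edgeR). Kcnip2, an accessory subunit of Kv4 channels, was higher, at 68.1, 55.1 and 65.1 CPM against 41.7, 42.3 and 43.0 CPM (log2 fold change 0.58, SE 0.0813, adjusted p = 0.00322, edgeR). The other higher member was the noncoding Kcnq1ot1, an antisense RNA of the imprinted Kcnq1 domain, at 11.1, 12.2 and 9.01 CPM against 6.997, 7.39 and 8.24 CPM (log2 fold change 0.52, SE 0.138, adjusted p = 0.0352, edgeR). Since the use of strand in counting is not stated, reads of Kcnq1ot1 and of Kcnq1 cannot be told apart where they overlap. Among the Kv4 pore genes that Kcnip2 serves, Kcnd2 had a log2 difference of -0.51 (adjusted p = 0.0607, edgeR) and Kcnd3 of -0.04.

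Several of these calls depended on single libraries. Kcns3, Kcnc2, Kcnj3, Kcnn1 and Kcnip2 were called in each of the 6 fits with 1 P22 library removed. Kcnk12 lost its call in all 6, Kcnq1ot1 in 5, Kcnh5 and Kcnj14 in 4, and Kcnq5 in 3. Kcnk10 and Kcnip3 lost it without Het replicate 3. The study had listed 9 channel genes, from these same samples, under the term potassium channels among its lower genes at P22. Their count is therefore not independent evidence of direction. Of those 9, 8 were called lower. Kcnip3, also called lower here, was among the study's lower genes under potassium channel complexes. Of 28 cochlear channels listed for their known roles, 2 were called lower and none higher, beside 1.41% and 1.74% of all genes. The median log2 difference of the 28 was -0.37 (edgeR). An unadjusted p under 0.05 was found for 20 of the 28 and for 28.7% of all genes. The 2 called, Kcnc2 and Kcns3, were also among the study's 9. The list of 28 was chosen with earlier results of these data known, so it is not an independent check either.

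Several more abundant channels differed by less than the fold limit. Hcn2 was at 540.3, 559 and 603 CPM in Het and 453, 396 and 408 CPM in Homo (log2 fold change -0.43, SE 0.0677, adjusted p = 0.00474, edgeR). Kcnc1 was at 859, 824 and 963 CPM and 646, 604 and 659 CPM (log2 fold change -0.46, SE 0.0708, adjusted p = 0.00426, edgeR). Neither gene overlapped between genotypes. Hcn4 came nearest to the fold limit, at 39.95, 39.5 and 53.1 CPM against 30.6, 31.3 and 31.8 CPM (log2 fold change -0.49, SE 0.108, adjusted p = 0.0166, edgeR), and was called in 3 of the 6 fits with 1 library removed. Kcna2, Kcnh2 and Kcnk1 also had lower Homo values at an adjusted p under 0.05, with log2 differences of -0.37, -0.38 and -0.39. Kcnma1 and Kcnn2, named above for hair cells and their efferent contacts, did so too, at -0.36 and -0.40. Kcna1, the highest member per kilobase, did not pass (log2 fold change -0.21, SE 0.0826, adjusted p = 0.118, edgeR). By subfamily, 3 of 4 Hcn genes, 3 of 4 Kcnc genes and 2 of 3 Kcnab genes were lower at an adjusted p under 0.05 without the fold limit, where 7.28% of all genes were, with median log2 differences of -0.38, -0.43 and -0.27. The Kcna genes were mixed, with 1 of 7 lower on that rule, 2 of 7 below 0 and a median of 0.18. The 2 below 0 were Kcna1 and Kcna2, the most abundant Kcna genes per kilobase in P22 Het. The 13 neuron markers themselves ran from -0.45 to 0.41.

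Some other members had log2 differences above 0, including Kcnj16 and Kcnj10 of glia and supporting cells. Kcnj16 was at 123, 141 and 137 CPM in Het and 149.5, 188 and 193 CPM in Homo (log2 fold change 0.41, SE 0.0945, adjusted p = 0.0204, edgeR). Kcnj10 overlapped, with a log2 difference of 0.20. The sodium-activated channel Kcnt1 was higher by 0.30 at an adjusted p of 0.0180 (edgeR), below the fold limit. Kcna10, of hair cells, had a log2 difference of 0.18, and Kcnmb4 one of 0.0023. Neither of the latter had an adjusted p under 0.05.

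Of the stria vascularis, Kcne1 and Kcnq1 had the largest log2 differences of the family at P22, and both rested on 1 library. Kcne1 was at 0.614, 59.7 and 1.06 CPM in the Het libraries and 0.461, 1.06 and 0.754 CPM in the Homo libraries (log2 fold change -4.73, SE 1.44, adjusted p = 0.0571, edgeR). Without Het replicate 2 its log2 difference was -0.13 with an adjusted p of 0.879 (edgeR). Kcnq1 was at 6.01, 37.6 and 4.90 CPM in Het and 3.25, 3.98 and 4.63 CPM in Homo (log2 fold change -2.02, SE 0.643, adjusted p = 0.0663, edgeR), and gave -0.46 with an adjusted p of 0.162 without that library. The same library held Dct at 266.9, Tyr at 6.915 and the marginal cell gene Esrrb at 92.19 CPM, while the other P22 Het libraries held 1.197 and 1.99, 0.245 and 0.176, and 23.5 and 25.1 CPM. Cldn11 and Ptgds, which are also stria markers but are abundant in glia and mesenchyme, were not highest there. Kcnj10, which the stria also expresses, was at 224 CPM in that library, within the range of the Homo libraries, 216, 249.8 and 213 CPM. The 8 stria markers together, a sum led by Ptgds, ran from 9720.2 to 12535 CPM in P22 Het and from 12963 to 14725 CPM in P22 Homo, with Tyr at 0 in 2 of the Homo libraries. The part of these cells in the Kcne1 and Kcnq1 values was not tested. The log2 change of Kcne1 with age in Het was 1.03 with that library and -3.57 without it, and that of Kcnq1 0.45 and -1.11.

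**Figure D4:**
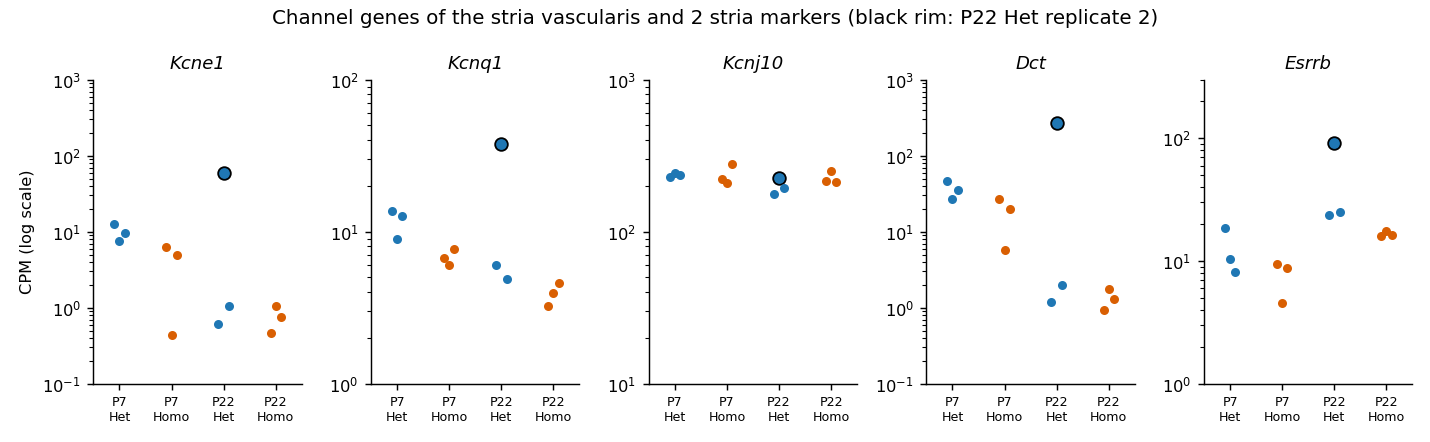
Kcne1, Kcnq1, Kcnj10 and the stria markers Dct and Esrrb in the 12 count libraries, in CPM on log axes (points: libraries). P22 Het replicate 2, with a black rim, lies above every other library for all of these except Kcnj10.

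At P7 the counts gave no called member. None of 88 passed and none of 16026 genes did, so 0% of all genes were called in either direction (edgeR, smallest member adjusted p 0.894, while DESeq2 called 1 member, Kcnh3). At an unadjusted p under 0.05 there were 13 members, 8 higher and 5 lower in Homo, where 4.76% of all genes passed that limit. The median log2 difference was 0.01 and 44 members lay on each side of 0, where 49.1% of all genes lay below it. The summed level of the family was 1487.41, 1280.35 and 1603.51 CPM in Homo against 1422.69, 1937.5 and 1618.48 CPM in Het (exact two-sided permutation test, p = 0.4). Those groups overlapped. The library at 1937.5 CPM, Het replicate 6, also had the highest neuron marker sum of the P7 count libraries, 3101.2 CPM.

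Members called at P22 had these values at P7. Kcns3 was at 9.33, 9.61 and 8.42 CPM in Het and 6.53, 9.62 and 8.97 CPM in Homo (log2 difference -0.10), with the groups overlapping. Kcnj3 had a log2 difference of 0.38 and Kcnc2 of -0.62. Kcnip2, higher in Homo at P22, was at 5.14, 15.9 and 10.7 CPM in Het and 4.00, 4.02 and 6.80 CPM in Homo at P7 (log2 difference -1.08, adjusted p = 0.894, edgeR), the groups overlapping. Its highest value, 15.9 CPM, was in Het replicate 6, the P7 count library with the highest neuron marker sum. Kcnk12 went from 0.320, 0.559 and 0.457 CPM in Het to 0.426, 1.78 and 2.11 CPM in Homo (log2 difference 1.68, adjusted p = 0.894, edgeR), again with overlap. The 10 brain neuron markers summed to between 50.364 and 65.707 CPM in P7 Het and between 70.669 and 80.647 CPM in P7 Homo, and their part in these values was not tested.

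The rounded TPM libraries of P7 gave 2 called members, both higher in Homo, of 36 tested. Over all 11740 genes tested there, 0.656% were called higher and 0.153% lower. Of the 2 called members, the acid-sensitive leak channel Kcnk9 was at 8, 8, 6 and 5 TPM in the 4 Het libraries and 9, 14, 13 and 14 TPM in the 4 Homo libraries (log2 fold change 0.70, SE 0.146, adjusted p = 0.0436, limma). The genotypes did not overlap for Kcnk9, but its lowest Homo library was within 1 TPM of the highest Het library, the step to which these values were rounded. Both calls were lost when any of Het replicates 2, 3 or 4 or Homo replicates 2, 3 or 4 was left out. Without Homo replicate 1 there were 11 calls, and without Het replicate 1 there were 4. Neither was called with a minimum mean of 1 TPM, with the length trend removed, under scaling to neuron markers or with the replicate number as a block. Of the 13 neuron markers 11 lay above 0 in these libraries, with a median log2 difference of 0.21, and their part in the channel values was not tested. Of the 36 members 27 had log2 differences above 0 and 9 below, where 47.4% of all genes lay below, with a median of 0.18 against 0.01 over all genes and of -0.0047 under scaling to neuron markers.

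Kcnk9 was not called elsewhere. Its log2 difference was -0.67 in the P7 counts and -0.55 at P22, the latter with an adjusted p of 0.129 (edgeR). Conversely, Kcns3 was at 5, 5, 5 and 5 TPM in Het and 4, 5, 6 and 4 TPM in Homo, overlapping and below the mean of 5 TPM needed for a test. Hcn2 was at 18, 23, 16 and 16 TPM and 18, 28, 29 and 24 TPM (log2 fold change 0.31, SE 0.142, adjusted p = 0.156, limma), and Kcnc1 at 11, 11, 9 and 7 TPM and 10, 18, 19 and 16 TPM (log2 fold change 0.55, SE 0.177, adjusted p = 0.0660, limma). In the P7 counts the log2 differences of Hcn2 and Kcnc1 were -0.45 and -0.39. The 2 sets of P7 libraries, split by deposited unit, thus pointed in opposite directions for both genes, with neither past its threshold. The median log2 difference of the 13 neuron markers was -0.31 in the P7 counts and 0.21 in the rounded TPM. In the P7 counts Het replicate 6 had the highest neuron marker sum, 3101.2 CPM, against 1574.6 and 1842.8 CPM in the other Het libraries. That library was also the highest of the P7 count libraries for Hcn2 and Kcnc1. The part of the neuron markers in these 2 genes was not tested.

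**Figure D5:**
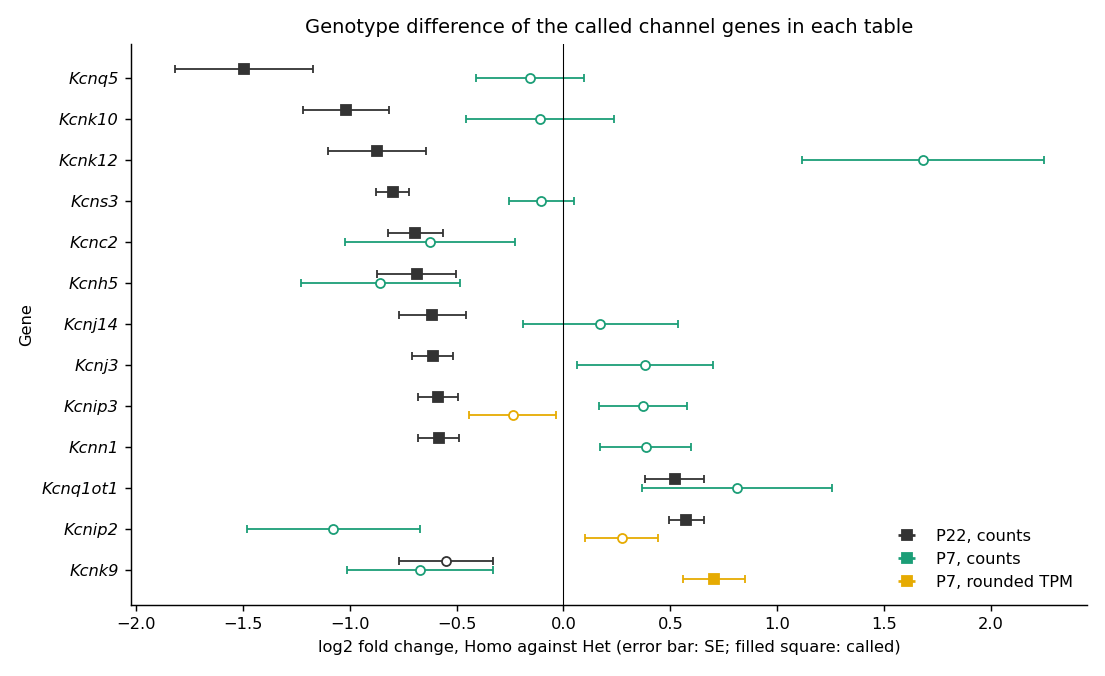
Log2 difference of Homo against Het for 13 members called in any table, in the P22 counts, P7 counts and P7 rounded TPM, with standard errors. Filled squares are called and open circles are not; of the 10 members called lower at P22, 5 lie below and 5 above 0 in the P7 counts, each table on its own TMM scale.

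The change of the genotype difference with age was tested over the 12 count libraries as an interaction term. No member of 90 passed (edgeR, smallest member adjusted p 0.152), while 0.0306% of all genes passed as lower and 0% as higher. At an unadjusted p under 0.05 there were 17 members, 14 with a more negative difference at P22 and 3 with a more positive one, where 10.2% of all genes passed that limit. DESeq2 called 6 members lower, Kcnd2, Kcnip3, Kcnk12, Kcnn1, Kcnn2 and Kcns3. Kcnn2 had the smallest p, at an interaction of -0.80 on the log2 scale, and Kcns3 stood at log2 fold change -0.68, SE 0.173, adjusted p = 0.233, edgeR. Kcnip2 had the largest positive value (log2 fold change 1.67, SE 0.429, adjusted p = 0.236, edgeR). Leaving out P7 Homo replicate 5 gave 5 lower and 1 higher, and leaving out P7 Het replicate 5 gave 1 higher. A call at P22 beside none at P7 therefore does not show that the genotype difference of a member changed with age.

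Partner proteins of these channels, a list of 20 genes outside the family, mostly rose with age. In Het, 16 rose and 2 fell, where 13.4% of all genes rose and 15.2% fell, with a median log2 change of 1.67 against -0.06 over all genes. Sptbn4, the spectrin that anchors channels at nodes, rose by 4.16, Cntn2, a juxtaparanodal adhesion protein, by 3.16, and Abcc8, the regulatory subunit that joins Kcnj11, by 2.91. Dpp10, an accessory protein of Kv4 channels, fell by 3.18 and Abcc9 by 1.10. With libraries scaled to neuron markers the counts were 4 and 5. Between genotypes at P22, 1 of the 20 was called lower and none higher, beside 1.41% and 1.74% of all genes (edgeR). That gene was Lgi2, which encodes a secreted synaptic protein, at a mean of 52.8 ± 5.93 CPM in Het and 23.7 ± 0.818 CPM in Homo (SD, n = 3 each; log2 fold change -1.15, SE 0.0872, adjusted p = 0.000303, edgeR). With no fold limit 5 were lower and 1 higher, beside 7.28% and 5.04% of all genes. Of the juxtaparanodal Kv1 complex, Lgi3 and Cntnap2 were among the 5, at -0.30 and -0.26, while Cntn2 lay at 0.20 and Adam22 at -0.035, neither with an adjusted p under 0.05. None of the 20 was called in the P7 counts, and 1 of 15 tested was called higher in the P7 rounded TPM (limma).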

How the data were processed

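Cochlear RNA was sequenced after poly A selection, and the authors deposited estimated counts per gene for P22 and for P7 replicates 5 to 7, and TPM rounded to whole numbers, treated here as a score, for P7 replicates 1 to 4. The submitters' notes name STAR, Salmon, DESeq2 and mm10. Versions, the annotation release and the use of strand are not given in the sources used here. No other column of sample values was left unused (0). One count unit had been assumed for all P7 libraries, but the units differed by replicate, so the 2 P7 tables were tested apart.

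Counts were rounded, filtered with filterByExpr, scaled by TMM and tested across all genes by quasi-likelihood fits in edgeR (4.0.16, R 4.3.3), with Benjamini-Hochberg adjustment. P22 and P7 genotype fits used their own libraries, and age and interaction fits all 12 count libraries. A call required an adjusted p under 0.05, a standard error under 0.5 and a log2 fold change beyond 0.5 for genotype or 1 for age. For the interaction the adjusted p alone was used. TPM values were scaled by TMM, taken as log2(TPM + 1) where the mean was at least 5 TPM, and tested with limma 3.58.1, so fold changes of low genes are understated. DESeq2 1.42.0, other scalings, filters, pseudocounts and fold limits, scaling to neuron or hair cell markers, a replicate block and leaving out each library were the alternatives. The fits were tested on simulated data. Library totals set the precision of counts, from 31108551 to 58807173, and the depth behind the TPM values is unknown.

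Members and gene lists were chosen with earlier results of these data known. Named were all called members and the 8 members highest per kilobase in P22 Het. Also named were the 10 largest rises and falls with age in Het at a mean of at least 1 CPM. The rest of this rule was 28 cochlear channels and the 9 genes of the study's potassium channels term. Other names were chosen after their values were seen, and a few members that meet this rule are not reported here. Nothing in the labels says that the pools are independent beyond being separate libraries, so p-values measure the spread between pools. Exon lengths and coordinates are from the GRCm38 annotation, matched by symbol, and promoter windows are from RefSeq on GRCm38.p6.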

Additional observations from a re-analysis of the deposited data

Results flagged for a closer look

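Among 50 groups of 4 rounded TPM values examined, 4 held a library whose gap to the rest of its group exceeded the 95% critical value of Dixon's test, and chance alone flags about 1 in 20 groups. In the P7 Homo libraries replicate 1 was low for Kcns1 at 21 TPM and for Kcnmb4 at 31 TPM, where the other 3 libraries lay at 26 and 41 TPM each. In the same group replicate 4 was high for Kcnip3, at 17 TPM. In the P7 Het libraries replicate 1 was high for Kcnma1 at 10 TPM, where the other 3 libraries lay at 9 TPM, 1 rounding step away.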

How the results depend on the processing

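Depth limits the members below about 1 CPM, the rounding step limits those of a few TPM, and 3 pools a group limit every genotype call. The cause of the changes listed here was not tested. Scaling to neuron markers or hair cell markers moved the median of all genes to 0.22 or -0.48 for genotype at P22 and to -2.19 or 1.09 for age in Het, so changes under these scalings are relative to that shift.

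Genotype at P22 had 10 members lower, 2 higher and a median log2 difference of -0.13. Scaled to neuron markers this became 3 lower, 9 higher and 0.067, and scaled to hair cell markers 46 lower, 0 higher and -0.62. With no fold limit 25 were lower and 5 higher, with a test against a log2 difference of 0.5 there were 0 and 0 (at an unadjusted p under 0.05 by the standard test 43), and with no low-count filter the median was -0.091. Leaving out 1 library gave 4 to 12 lower, 1 to 3 higher and medians from -0.23 to -0.068, the 4 without Het replicate 3. In the P7 counts the median of 0.01 became 0.19 under neuron marker and -0.13 under hair cell marker scaling. Hair cell marker scaling called 1 higher and 1 lower and DESeq2 called 1 higher. Leaving out 1 library gave 0 and 0, with medians from -0.02 to 0.03. In the P7 rounded TPM the median of 0.18 became -0.0047 under neuron marker scaling. The 2 members called higher became 1 with a pseudocount of 5, 5 without TMM, and 0 with a minimum mean of 1 TPM, under neuron marker scaling, with the length trend removed, with the replicate block, and with the length trend removed and the replicate block. Leaving out 1 library gave 0 to 11 higher, 0 lower and medians from 0.14 to 0.25.

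For age in Het the 33 rises, 18 falls and median of 0.42 became 8, 40 and -1.64 under neuron marker scaling and 50, 4 and 1.53 under hair cell marker scaling, and the median was 0.29 by upper quartile scaling. Leaving out 1 library gave 31 to 33 rises, 13 to 19 falls and medians from 0.32 to 0.63. For age in Homo the 31 rises, 23 falls and median of 0.20 became 8, 42 and -1.96 under neuron marker scaling and 8 falls and 1.01 under hair cell marker scaling, and the median was 0.052 by upper quartile scaling. Leaving out 1 library gave 30 to 31 rises, 14 to 23 falls and medians from 0.070 to 0.26, with 14 falls without P7 Homo replicate 6 and 15 without P22 Homo replicate 3. Neuron marker scaling reversed Kcnh5 to -0.43, Kcnn1 to -0.22, Kcns3 to -0.0019, Hcn4 to -0.31, Kcnn2 to -0.62 and Kcnt1 to -0.51 for age in Het. It reversed Kcnh5 to -0.38, Kcnj3 to -0.20, Kcnk10 to -0.90, Kcns3 to -0.65, Hcn4 to -0.83, Kcnj16 to -0.83 and Kcnt1 to -0.61 for age in Homo. For the interaction of genotype and age, hair cell marker scaling gave a median of -0.38 and 3 members lower, and DESeq2 gave 6 lower. Leaving out 1 library gave 0 to 1 higher, 0 to 5 lower and medians from -0.20 to -0.030.

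Of the 20 partner genes, those called at P22 (0 higher, 1 lower) became 1 higher under upper quartile scaling, neuron marker scaling or no fold limit, and 14 lower under hair cell marker scaling or 5 lower with no fold limit, with 0 to 1 higher and 1 lower when 1 library was left out. Their 16 rises and 2 falls with age in Het became 4 and 5 under neuron marker scaling and 1 fall under hair cell marker scaling, with 14 to 16 and 2 when 1 library was left out.

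Replicate numbers did not pair the libraries. Same-numbered libraries correlated in their deviations at 0.0604, -0.00191 and 0.0514 at P22. In the P7 counts the values were 0.049, -0.0535 and 0.0685, and in the P7 rounded TPM -0.204, -0.0736, -0.0131 and -0.226. A fit with the replicate number as a block called 7 members lower and 2 higher at P22, 0 in the P7 counts, 0 in the rounded TPM and 0 for the interaction. Kcnk13 was called higher in place of Kcnq1ot1 in that fit at P22, while Kcnh5, Kcnj14 and Kcnk12 were not called. With P7 replicates numbered 5 to 7 and P22 replicates 1 to 3, the age comparisons shared no number, so no paired analysis across age was possible.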

Other observations

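Low-level members gave some of the largest differences in the P7 counts, none past the adjusted threshold in the edgeR fit on the TMM scale. In the P7 counts Kcnh3, an ELK channel of the forebrain, had a log2 difference of 2.30 between Homo and Het (0.566, 0.447 and 0.370 CPM in Het and 1.13, 2.56 and 3.02 CPM in Homo), and Kcnh1, an EAG channel, one of 1.45 (1.11, 1.04 and 0.588 CPM and 1.21, 2.62 and 3.59 CPM). Both were named after their values were seen, with adjusted p of 0.894 and 0.894 (edgeR). Every Homo library lay above every Het library for each of them. Kcnh3 was called higher by DESeq2 and under hair cell marker scaling. The brain neuron markers summed higher in the same Homo libraries, 70.669 to 80.647 CPM against 50.364 to 65.707 CPM, and their part in these values was not tested.

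Kcng2, a silent Kv subunit also named after its value was seen, had the largest positive log2 difference at P22, 0.90 (0.491, 0.440 and 0.323 CPM in Het and 0.705, 0.929 and 0.698 CPM in Homo, adjusted p = 0.127, edgeR). Kcnk13, a K2P channel found in microglia, had a log2 difference of 0.61 (5.37, 6.88 and 5.16 CPM and 8.03, 11.7 and 6.61 CPM, adjusted p = 0.0816, edgeR), and was called by DESeq2. It also rose with age, by 2.13 in Het and 2.76 in Homo. The 8 macrophage markers summed to between 146.68 and 176.97 CPM in P22 Het and between 173.58 and 227.08 CPM in P22 Homo, ranges that overlap. All 8 had log2 differences above 0, with a median of 0.30, 4 of them at an unadjusted p under 0.05 and 1 at an adjusted p under 0.05 (edgeR), and their part in the Kcnk13 value was not tested.

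The stria channels also varied within the rounded TPM libraries of P7. Kcne1 was at 0, 1, 19 and 7 TPM in Het and 3, 4, 4 and 1 TPM in Homo, and Kcnq1 at 3, 3, 14 and 8 TPM and 4, 6, 7 and 4 TPM. Het replicate 3 was the highest of the 8 libraries for both genes.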
